A study of Mus musculus with 2 samples.

Results

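Acta2, Tagln, Cnn1, Myl9, Tpm1 and Tpm2, genes of the smooth-muscle-type contractile apparatus, were followed in ependymal cells of the adult mouse spinal cord before and after an incision. They are 6 of the 17189 genes in the authors' table of EpA cells, 1 kind of the ciliated ependymal cells around the central canal. The genes were picked by name with their levels in these libraries already known, so every level and ratio below is a description and carries no test. The study compared the intact cord with the cord at day 3 after its dorsal funiculus was incised, and asked how EpA cells differ in their transcripts after injury. Both groups were adult C57BL/6J mice of at least 12 weeks that carried Troy-CreERT2+/- x Rosa26-tdTomato, so the controls bear the same driver and reporter alleles as the injured animals. Troy is another name of Tnfrsf19, CreERT2 is a recombinase that enters the nucleus in the presence of tamoxifen, and recombination switches on the red fluorescent protein tdTomato. Cells positive for tdTomato were sorted from 5 mm of cord and sequenced as 1 single-cell 3′ library per condition, and the labels give neither the number of animals in a library nor the tamoxifen schedule. The sort was not pure for ependyma: kept cells outside EpA included endothelial-like, fibroblast-like, microglia-like and astrocyte-like cells.

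The products of the 6 genes work together in contracting cells. Acta2 encodes alpha smooth muscle actin, the filament on which myosin pulls, while Tpm1 and Tpm2 encode tropomyosins, coiled-coil rods that lie along actin filaments. Tagln encodes transgelin (SM22-alpha) and Cnn1 encodes calponin 1, both actin-binding proteins, and Myl9 encodes a regulatory light chain of myosin II whose phosphorylation switches the motor on. As a group these genes mark vascular smooth muscle and pericytes in the healthy nervous system, are switched on in myofibroblasts of healing wounds, and are textbook targets of serum response factor (SRF), which binds a DNA element called the CArG box.

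The EpA set held 555 cells of the uninjured and 1004 of the injured library. These cells summed to 7689179 and 25296289 unique molecular identifiers (UMIs, each standing for 1 captured transcript). The median depth of an EpA cell was 11387 UMIs without injury and 20158.5 with it. A further 156 and 224 cells were kept by the authors outside EpA. EpA cells carried the markers of ependyma: all 10 were above 10 counts per 1000000 UMIs (CPM) in both libraries, with a summed level of 15233 CPM uninjured and 5111 CPM injured. The libraries shared 18 barcode sequences, 2 of them between their EpA cells, and no cell was counted under both. With 1 library per condition no difference has a replicate check. Intervals in brackets are exact 95% intervals for counting error alone, and a 3′ UMI count does not tell isoforms of a gene apart.

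Tagln, Tpm2, Cnn1 and Acta2 were 42.0-fold, 31.9-fold, 17.1-fold and 4.30-fold higher in injured EpA cells, Tpm1 was 3.14-fold higher, and Myl9 was at nearly the same level in both libraries. Of the 3 genes that reached 50 CPM in either library (Acta2, Tagln and Tpm1), 3 were at least 2-fold higher. Over all 3706 EpA genes past that floor, 402 genes or 10.8% were at least 2-fold higher, 511 genes or 13.8% were at least 2-fold lower, and the median log2 ratio was 0.00. The balance of higher and lower genes turned with the scaling: it was 456 and 456 with TMM factors, 211 and 131 with every cell weighted alike, and 230 and 197 with cells thinned to 2000 UMIs. Cnn1, Myl9 and Tpm2 stayed under 50 CPM in both libraries and were not counted there. At a floor of 20 CPM all 6 genes were measured, 5 of them at least 2-fold higher, where 10.8% of the 7109 genes were. The genes had been chosen with this contrast in view, so the counts describe the choice and support nothing.

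Acta2, on chromosome 19 (GRCm38, 34241090 to 34255590, minus strand), stood at 27.8 CPM (24.2 to 31.8) in the uninjured EpA cells. It stood at 119.8 CPM (115.6 to 124.1) in the injured EpA cells. The injured level was 4.30-fold the uninjured one (3.75 to 4.97), a log2 ratio of 2.10, and the intervals of the levels did not overlap. The share of cells in which Acta2 was seen moved far less than the level. With every cell thinned to 2000 UMIs, 4.75% (3.13 to 6.89) of 547 uninjured cells and 5.34% (4.03 to 6.93) of 992 injured cells held an Acta2 UMI. Thinned to 5000 UMIs these shares were 8.53% and 10.4%, and without thinning 16.2% and 20.3%. The smooth muscle actin gene was thus detected in a like share of cells at equal depth, and the libraries differed in how many UMIs its richest cells held.

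Tagln and Cnn1, the actin-binding members, had the highest ratio of the 6 genes and the one next after Tpm2. Tagln (chromosome 9, 45929619 to 45936058, minus strand) went from 15.1 CPM (12.5 to 18.1) in uninjured to 633 CPM (624 to 643) in injured EpA cells, or from 116 to 16024 UMIs. That is a 42.0-fold ratio (35.0 to 50.8), rank 31 among the 3706 genes measured. Cnn1 (chromosome 9, 22099216 to 22109630, plus strand) went from 2.21 CPM (1.29 to 3.54), which is 17 UMIs, to 37.8 CPM (35.5 to 40.3), a 17.1-fold ratio (10.6 to 29.5). In contrast to Acta2, both genes were also seen in more cells. At 2000 UMIs a cell, Tagln was detected in 1.83% (0.88 to 3.34) of uninjured and 19.4% (16.9 to 22.0) of injured EpA cells. Cnn1 was detected in 0.37% (0.04 to 1.31) and 3.53% (2.47 to 4.87). Without thinning, 426 injured cells or 42.4% held a Tagln UMI and 168 cells or 16.7% held a Cnn1 UMI, against 59 and 15 uninjured cells.

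Myl9 (chromosome 2, 156775420 to 156781658, plus strand) was the member that differed least. Its level was 20.03 CPM (17.0 to 23.5) uninjured and 22.2 CPM (20.4 to 24.1) injured, a ratio of 1.11 (0.93 to 1.33) whose interval includes equal levels and excludes a 2-fold difference in either direction, as far as counting error goes. At 5000 UMIs a cell it was detected in 8.72% (6.48 to 11.4) of uninjured and 8.64% (6.95 to 10.6) of injured EpA cells. Counted per cell, without scaling to the cell's total, its ratio was 2.02. On the CPM scale the regulatory light chain was therefore present in the resting ependyma at a level near that after injury.

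The tropomyosins parted from each other in their resting level. Tpm1 (chromosome 9, 67022590 to 67049406, minus strand) was read in 58.9% of uninjured EpA cells already, at 84.3 CPM (77.9 to 91.0), and stood at 264.9 CPM (258.6 to 271.3) after injury, a 3.14-fold ratio (2.90 to 3.41). Its share of cells at 2000 UMIs was 15.2% (12.3 to 18.5) uninjured and 23.8% (21.2 to 26.6) injured. Tpm2 (chromosome 4, 43514711 to 43523765, minus strand) had only 7 UMIs in the uninjured EpA cells, 0.91 CPM (0.37 to 1.88), and 735 UMIs or 29.1 CPM (27.0 to 31.2) in the injured ones, a 31.9-fold ratio with a wide interval (15.4 to 79.7). At 2000 UMIs no uninjured cell of 547 held a Tpm2 UMI, with an exact upper bound of 0.67%, and 2.42% (1.56 to 3.58) of injured cells did. The Tpm1 ratio fell under 2-fold with cells thinned to 2000 UMIs (1.93), with every cell weighted alike (1.82) and in cells of 5000 to 20000 UMIs (1.35). The annotation gives Tpm1 21 transcripts, 16 of them coding, and these counts do not say which of them EpA cells used.

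**Figure D1:**
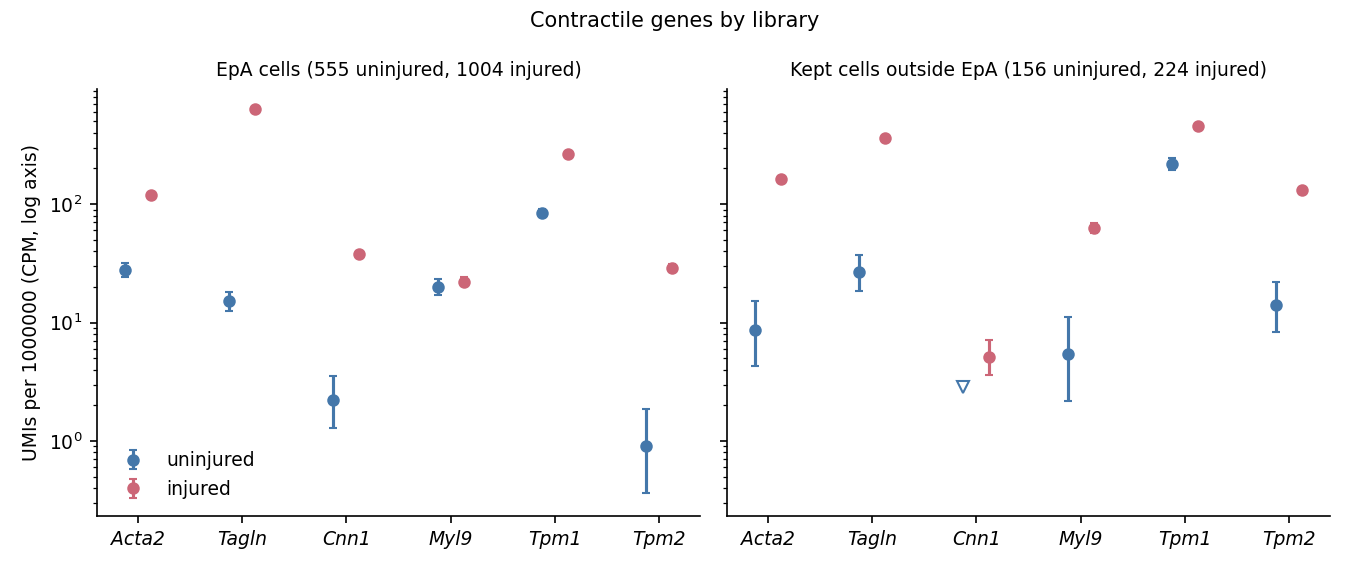
Level of each gene in UMIs per 1000000 on a log axis, in EpA cells (left) and in kept cells outside EpA (right), 1 point per library with its exact 95% Poisson interval; the open triangle marks the upper limit for Cnn1, which had no UMI in uninjured cells outside EpA. In EpA cells the points of Myl9 (20.03 and 22.2 CPM) lie side by side while those of Tagln (15.1 and 633 CPM) lie farthest apart.

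The UMIs of most members sat in few cells. The 10% of injured EpA cells with the highest CPM of a gene (101 cells) held 94.9% of the Acta2 UMIs, 91.5% of Cnn1, 87.0% of Tagln and 86.3% of Tpm2, but 62.2% of Tpm1 and 59.96% of Myl9. A single injured cell carried 330 Acta2 UMIs, 10.9% of the total. The richest cell for Tagln carried 1003 UMIs, 6.26% of the total. Acta2 thus drew its injured level from a small number of very rich cells. Tagln was broader, with 166 injured cells of 10 UMIs or more and 40 cells of 100 or more. In the uninjured library the richest EpA cell held 15 Acta2 UMIs and 10 Tagln UMIs. Without the 1% of cells with the highest CPM of Acta2 in each library, its ratio was 2.60 in place of 4.30, so that part of the Acta2 difference rests on 11 injured cells. The Tagln ratio was 32.7 without its 1% highest cells. Tpm1 was the most evenly spread member at rest, where its top 10% of cells held 30.9% of its UMIs. Its top 10% after injury held 62.2%.

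**Figure D2:**
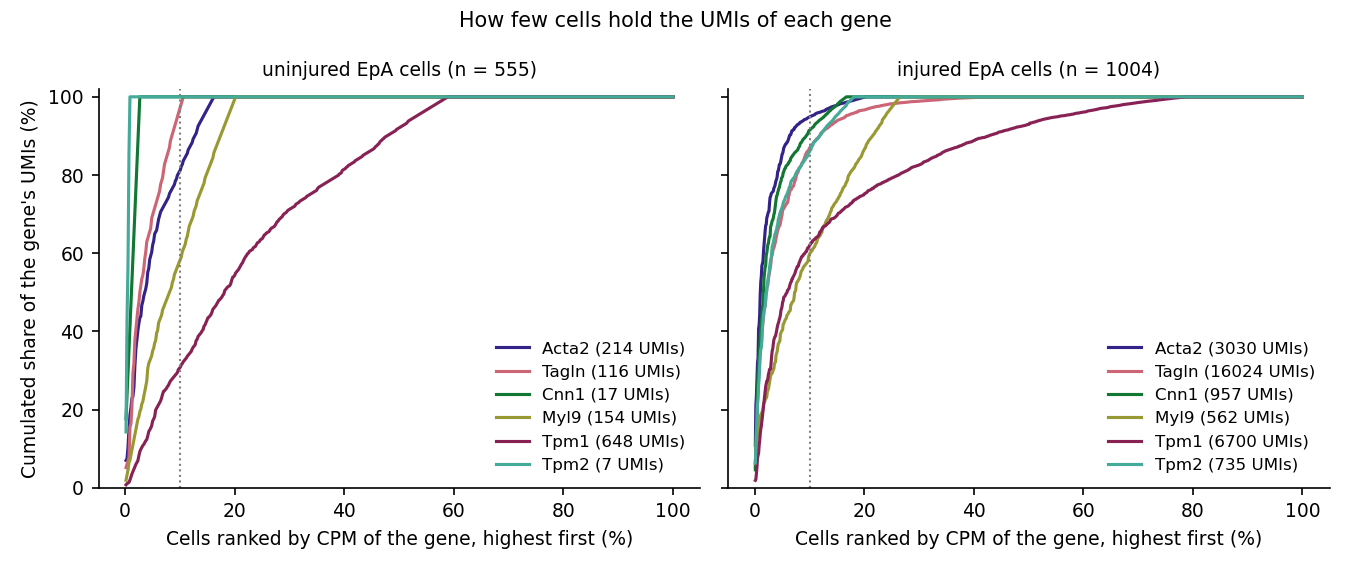
Cumulated share of each gene's UMIs (%) against EpA cells ranked from the highest to the lowest CPM of that gene (%), uninjured on the left and injured on the right, with a dotted line at 10% of cells. In injured cells the curves of Acta2, Cnn1, Tagln and Tpm2 have reached 86.3% or more at that line and those of Myl9 and Tpm1 59.96% and 62.2%; uninjured Cnn1 and Tpm2 rest on 17 and 7 UMIs.

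In the injured library all 6 genes were highest in the deepest cells, Myl9 by the least. Tagln stood at 35.6 CPM (26.1 to 47.5) in the 156 injured cells of 5000 to 10000 UMIs, and at 134.9 CPM (124.3 to 146.2) in the 310 cells of 10000 to 20000. It stood at 373 CPM (361 to 386) in the 336 cells of 20000 to 40000, and at 1171 CPM (1150 to 1192) in the 170 cells above 40000. CPM already divides by the cell's total, so the step is one in the proportion of UMIs, and its cause was not tested. Tpm2 and Cnn1 went the same way, from 0 and 2.32 CPM in cells of 5000 to 10000 UMIs to 57.1 and 68.5 CPM above 40000. Acta2 was 22.4, 63.5, 53.8 and 218 CPM, and Tpm1 110.7, 104.6, 157.9 and 454 CPM, in the same 4 classes from shallow to deep. For these 2 genes the largest step was the one to the deepest class. Myl9 was 28.1 CPM (24.9 to 31.5) in the deepest cells and between 16.3 and 21.7 CPM in the other classes. Whether the deepest barcodes include doublets was not tested.

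Over the depths that uninjured EpA cells covered, Tagln showed no step of that size. It was 9.77 CPM (5.2 to 16.7), 13.2 CPM (9.67 to 17.6) and 17.4 CPM (12.8 to 23.2) in the 158, 272 and 106 uninjured cells of the 3 classes up to 40000 UMIs, and only 3 uninjured cells lay above. Acta2 was lowest in the shallowest of these classes, at 15.8 CPM (9.76 to 24.1), 30.4 CPM (24.9 to 36.8) and 28.5 CPM (22.5 to 35.6), and Tpm1 went from 65.4 to 83.3 and 90.7 CPM. Among cells of 5000 to 20000 UMIs in both libraries (430 uninjured, 466 injured), the ratio was 9.18 (7.02 to 12.2) for Tagln, 2.06 (1.67 to 2.55) for Acta2, 1.35 (1.19 to 1.54) for Tpm1 and 0.97 (0.73 to 1.27) for Myl9. It was 5.47 (1.24 to 49.95) for Tpm2, on 2 uninjured and 13 injured UMIs, and 2.83 (1.41 to 6.16) for Cnn1, on 11 and 37. Each ratio was smaller than over all cells, and the places of Tpm2 and Cnn1 in the order are not resolved at these counts. With every cell weighted alike, whatever its depth, the ratio was 10.8 for Cnn1, 10.0 for Tagln, 7.92 for Tpm2 and 2.44 for Acta2. The order of the first 3 was thus not that of the main values. In that setting shallow cells count as much as deep ones, and uninjured Tagln was 34.5 CPM, against 15.1 CPM from summed UMIs. A single uninjured cell stood at 7557 CPM of Tagln. It lay among the 16 uninjured cells under 5000 UMIs, none of which held more than 6 Tagln UMIs. The ratio without this cell was not formed, so the place of Tagln below Cnn1 in that setting is not settled. Depth per cell and injury differ together between these libraries, and their parts in the ratios cannot be told apart beyond this matching. The 16 uninjured cells under 5000 UMIs stood apart, with 219 CPM (100.3 to 416) of Acta2 and 244 CPM (117 to 448) of Tagln, which rest on 9 and 10 UMIs.

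**Figure D3:**
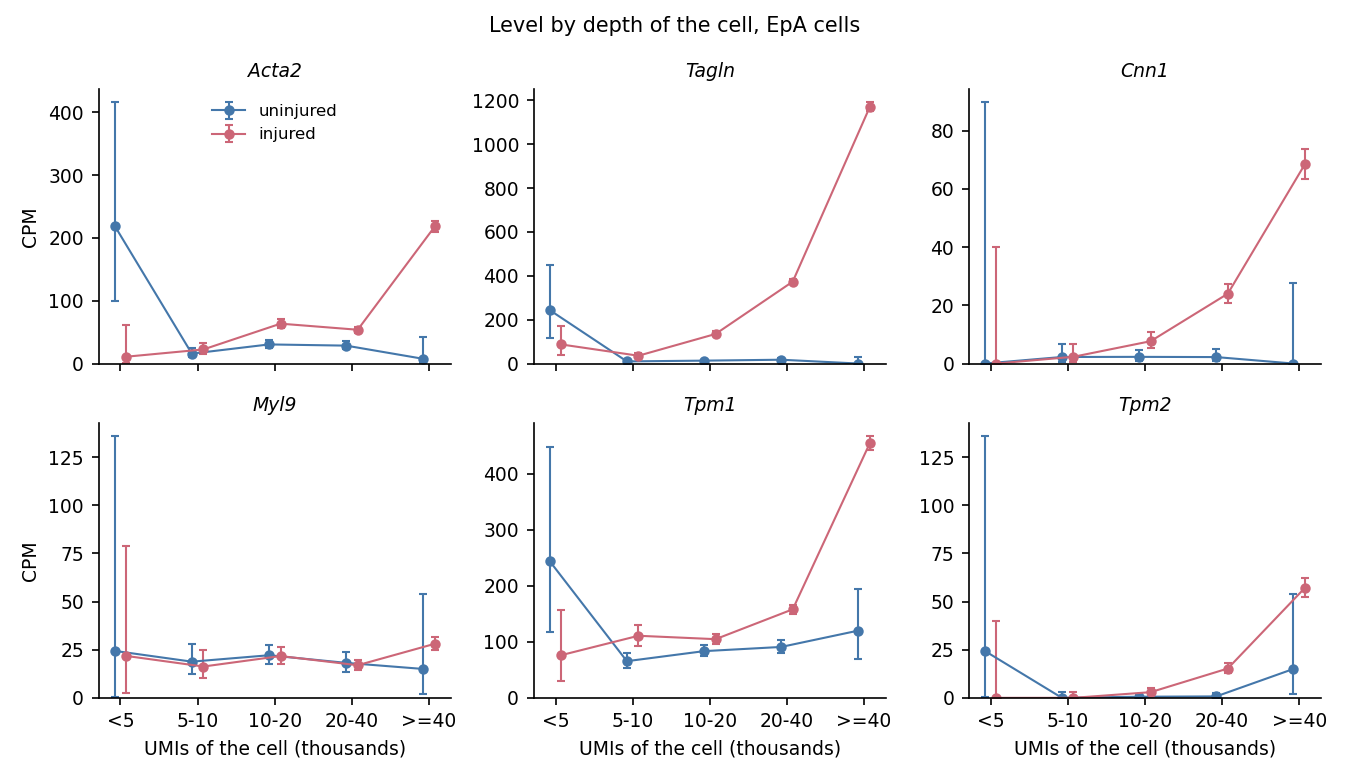
Level of each gene (CPM, linear axis) in EpA cells grouped by the total UMIs of the cell (axis marks 5, 10, 20 and 40 stand for 5000, 10000, 20000 and 40000), uninjured and injured, with exact 95% Poisson intervals. The injured line is highest in cells of 40000 UMIs or more, where Tagln reaches 1171 CPM and Myl9 only 28.1 CPM; the outer uninjured points rest on 16 and 3 cells.

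Some injured cells held several of the members together. With every cell thinned to 5000 UMIs, at least 3 of the 6 genes were detected in 4 of 539 uninjured cells (0.74%) and in 88 of 972 injured cells (9.05%), and all 6 in 4 injured cells. Most injured cells held fewer, with none of the genes in 363 cells and 1 gene in 350. Each gene but Myl9 was also seen in a larger share of injured cells, and its part in the gap was not tested. Of the 101 injured cells with an Acta2 UMI at that depth, 65.3% also had a Tagln UMI, against 22.5% of the injured cells without Acta2. Of the 58 injured cells with Cnn1, 72.4% had Tagln, against 24.1% of those without. In the uninjured library 2 of the 46 cells with Acta2 had Tagln, or 4.35%, against 3.65% of those without it. Acta2 and Tagln were therefore found together in the injured library and hardly so at rest, where few cells could show it. A Myl9 UMI was also read more often in injured cells with Tagln, in 12.2% of them against 7.32% of those without, a smaller gap.

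Injured EpA cells that had few cilium transcripts carried most of the contractile signal. Cells were divided at 0.95% of UMIs in 41 motile cilium genes, the 5th percentile of uninjured EpA cells at 2000 UMIs, which put 552 injured cells below the uninjured range and 440 within it. This division is a point on a continuous scale, with 95 injured cells within 20% of it. Tagln stood at 815 CPM (803 to 828) below the range and at 95.03 CPM (87.6 to 102.9) within it, 8.58-fold apart (7.91 to 9.32). Tpm2 stood at 38.3 and 1.73 CPM, 22.2-fold apart (12.3 to 44.7), Cnn1 at 48.3 and 6.90 CPM, 7.0-fold apart (5.17 to 9.70), and Acta2 at 149.2 and 32.8 CPM, 4.55-fold apart (3.95 to 5.26). Tpm1 was 3.07-fold higher below the range (2.83 to 3.33), and Myl9, at 21.6 and 24.0 CPM, was not higher there (ratio 0.90, 0.75 to 1.09). Median depth was 28526 UMIs below the range and 11464.5 within it, so the depth pattern above moves with this division.

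Injured cells that kept a cilium content within the uninjured range were at about the uninjured depth, which allows a plainer comparison. Their Tagln level was 7.11-fold (5.74 to 8.88) that of the 527 uninjured cells in the range, 95.03 against 13.4 CPM, at median depths of 11464.5 and 11410 UMIs. Cnn1 was 3.41-fold higher (1.86 to 6.59) and Tpm1 1.24-fold higher (1.11 to 1.38). For Acta2 the ratio was 1.15 (0.95 to 1.40), for Myl9 1.17 (0.93 to 1.47) and for Tpm2 2.13 (0.72 to 7.01), each with an interval that includes equal levels. The Tpm2 ratio rests on 6 uninjured and 11 injured UMIs. With the range drawn at the 10th percentile of uninjured cells, the intervals of Acta2 (1.27, 1.03 to 1.56) and Myl9 (1.30, 1.02 to 1.66) excluded equal levels, and that of Tpm2 (1.84, 0.59 to 6.29) did not. Tagln had the largest ratio of the 6 genes within the range under both divisions.

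On the CPM scale Acta2 and Cnn1 were lower in dividing injured cells than in other injured cells with few cilium transcripts. Injured EpA cells with at least 2 of 10 core mitosis genes at 2000 UMIs (114 cells, median 50631 UMIs) were set against the 440 injured cells below the cilium range that were not dividing (median 25283 UMIs). Acta2 was 97.8 CPM in dividing and 173 CPM in the other cells, a ratio of 0.57 (0.52 to 0.62). Cnn1 was 31.8 and 56.0 CPM (0.57, 0.48 to 0.67), Tagln 652 and 891 CPM (0.73, 0.71 to 0.76) and Myl9 15.2 and 24.7 CPM (0.61, 0.48 to 0.78). The share of cells did not show that order, though at 2000 UMIs its intervals overlapped for Acta2, Cnn1 and Tagln. At 2000 UMIs a cell, Acta2 was detected in 8.77% (4.29 to 15.5) of dividing and 6.14% (4.08 to 8.80) of the other cells, Cnn1 in 7.89% (3.67 to 14.5) and 4.55% (2.80 to 6.93), and Tagln in 34.2% (25.6 to 43.7) and 24.8% (20.8 to 29.1). At 5000 UMIs the Tagln shares were 48.2% (38.8 to 57.8) and 33.6% (29.2 to 38.3). The cell with 330 Acta2 UMIs was among those not dividing, and the richest dividing cell held 80. The tropomyosins were higher in dividing cells in CPM. Tpm1 was 388 CPM in dividing and 286 CPM in the other cells, a ratio of 1.35 (1.29 to 1.43), and Tpm2 52.7 and 31.4 CPM, a ratio of 1.68 (1.45 to 1.95). The 6 genes thus did not share 1 profile among injured cells, although dividing cells were the deeper ones.

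The kept cells of both libraries were also clustered jointly with the 6 genes left out of the clustered set, so their levels by cluster were not used to form the clusters. In the injured library 2 clusters stood out among EpA cells. One, an ependymal-like cluster of 219 injured and no uninjured EpA cells led by Crym (the thyroid hormone-binding mu-crystallin), had Tagln at 1219 CPM (1195 to 1244), Acta2 at 234 CPM (224 to 245) and Cnn1 at 80.8 CPM (74.6 to 87.4). Over all 223 cells of this cluster 5 of 10 ependymal markers passed 100 CPM, the fewest that the naming rule allows. The other, of 118 injured EpA cells, took no name because 2 of 10 ependymal markers passed 100 CPM. Mitotic and neutrophil granule genes were among the leading genes of the whole cluster, which were ranked over all its 130 cells. Among those were 4 uninjured EpA cells and, in each library, 4 cells outside EpA. Which cells held the granule genes was not tested. The 118 injured EpA cells had Tagln at 781 CPM (760 to 803), Tpm1 at 439 CPM (423 to 456) and Tpm2 at 63.7 CPM (57.8 to 70.1). For Tagln the 183 injured cells of a cluster led by Gfap (the glial filament protein) came next, at 192 CPM (179.6 to 206). Their Acta2, at 25.5 CPM (21.1 to 30.7), lay below that of 2 other ependymal-like clusters, 51.0 CPM (39.2 to 65.3) in 87 and 37.1 CPM (30.1 to 45.2) in 171 injured cells. In the largest ependymal-like cluster, where 420 uninjured and 226 injured EpA cells met, injured Tagln was 63.1 CPM (53.9 to 73.6) and injured Acta2 18.1 CPM (13.3 to 24.1). The Crym-led cluster and the unnamed one were thus the highest EpA clusters for 5 of the 6 genes. Myl9 was 31.2 CPM (27.4 to 35.4) in the first and 16.1 CPM (13.2 to 19.5) in the second, and between 13.3 and 27.5 CPM in the rest. Over all their cells, the Crym-led and the unnamed cluster had median depths of 30319 and 51996 UMIs. The other ependymal-like clusters had medians from 10787 to 21441 UMIs. The depth pattern above therefore moves with these clusters too.

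**Figure D4:**
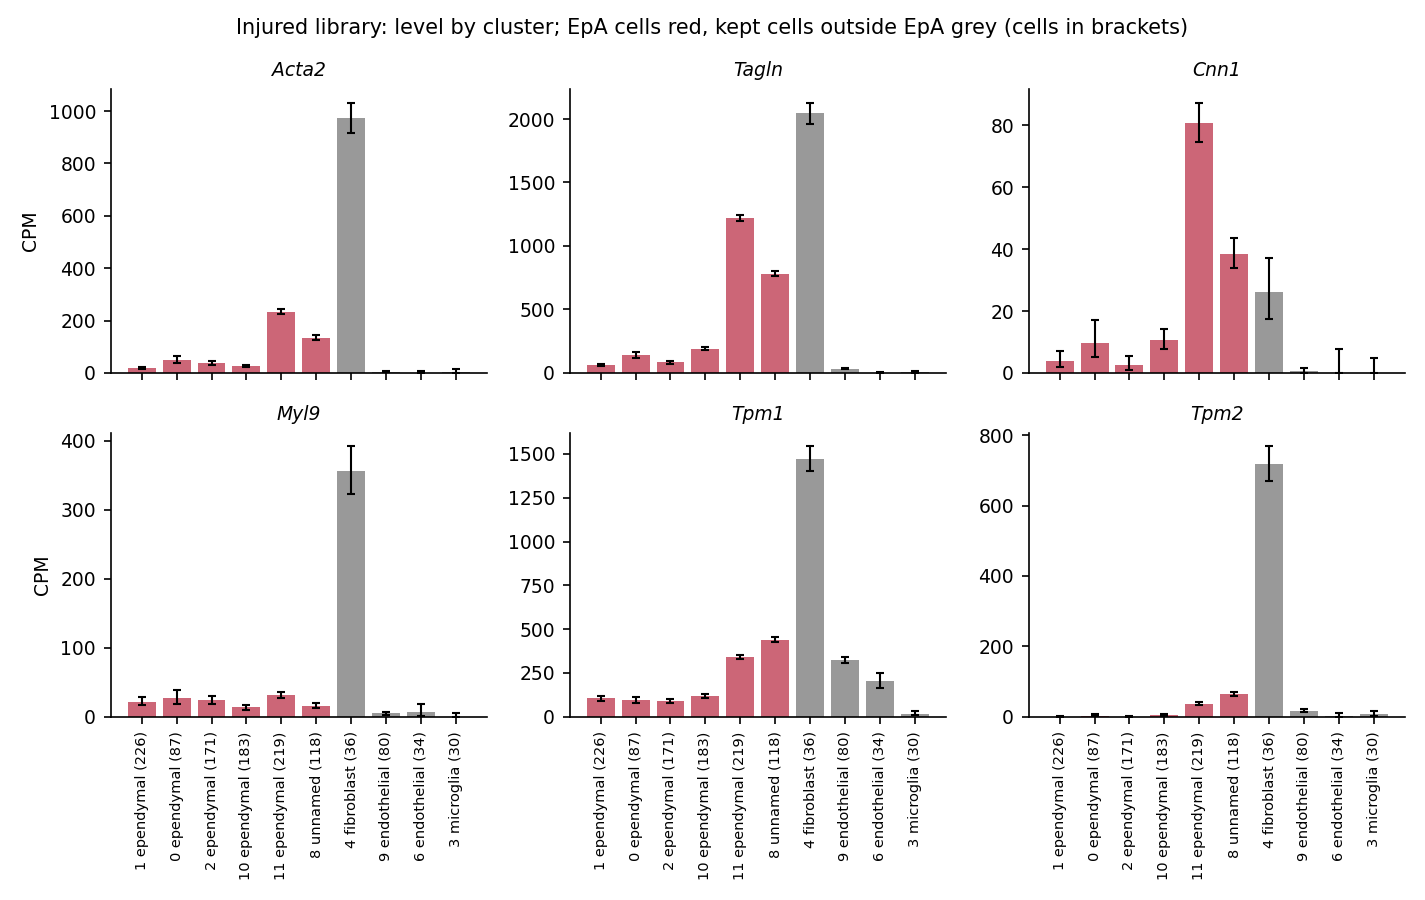
Level of each gene (CPM, linear axis from 0) in the injured library by cluster, EpA cells in red and kept cells outside EpA in grey, with exact 95% Poisson intervals and the number of cells in brackets. Cnn1 is highest in ependymal-like cluster 11 (80.8 CPM), while Acta2 (974 CPM), Tagln (2046 CPM), Myl9, Tpm1 and Tpm2 are highest in the 36 fibroblast-like cells.

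Outside EpA, all the genes but Tpm1 came nearly wholly from a fibroblast-like cluster of 30 uninjured and 36 injured cells. In the injured library that cluster held 97.8% of the Acta2 UMIs outside EpA, 93.0% of Tagln, 94.0% of Myl9, 91.0% of Tpm2 and 83.3% of Cnn1. Tpm1 was shared, with 53.2% in the fibroblast-like and 41.5% in 1 endothelial-like cluster. Injured fibroblast-like cells stood at 974 CPM (918 to 1032) for Acta2, 2046 CPM (1964 to 2130) for Tagln, 356 CPM (322 to 392) for Myl9, 1472 CPM (1403 to 1544) for Tpm1 and 718 CPM (670 to 769) for Tpm2. Of the 6 genes, only Cnn1 was lower in these cells (26.1 CPM, 17.6 to 37.2) than over injured EpA cells. Desmin (Des), the muscle intermediate filament, was among the 10 leading genes of this cluster, with 192 CPM in the injured cells, and 127 of its 221 UMIs lay in 1 cell. Acta2, too, was uneven there, since 1 cell held 337 of its 1121 UMIs. Over all cells of the cluster, 7 of 8 fibroblast markers passed 100 CPM. So did 2 of 10 markers of mural cells, the smooth muscle cells and pericytes around vessels. Whether the cluster held mural cells was not tested.

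The uninjured fibroblast-like cells were much shallower (median 1131.5 UMIs, against 18693 injured), and their Acta2, at 57.2 CPM, rests on 10 UMIs. Their Tagln was 194 CPM (134.7 to 272), Tpm1 761 CPM (637 to 901), Tpm2 97.2 CPM (56.6 to 156) and Myl9 34.3 CPM (12.6 to 74.7), and Cnn1 was at 0 UMIs. All 5 genes with a UMI were therefore lower than in the injured fibroblast-like cells. Over all cells outside EpA, Acta2 went from 8.58 CPM (4.28 to 15.4) to 164 CPM (155 to 174), a 19.2-fold ratio (10.7 to 38.5). Tagln was 13.7-fold higher (9.78 to 19.8), Myl9 11.5-fold (5.51 to 28.7), Tpm2 9.29-fold (5.84 to 15.7) and Tpm1 2.10-fold (1.86 to 2.38). The 5 genes that passed 50 CPM there were all at least 2-fold higher, where 12.2% of 3762 genes were and 18.4% were at least 2-fold lower. Cnn1 had no UMI among 1281715 in the uninjured cells outside EpA and 36 in the injured ones. Its injured level was 2.21-fold a floor of 3 counts over the uninjured group, and the exact lower limit of the ratio was 1.70. Myl9 was the member whose ratio differed most between the 2 sets of cells, at 1.11 in EpA cells and 11.5 outside, with intervals that do not overlap; that difference was not tested. A change in which cells were sorted and a change within cells cannot be told apart in these sums.

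The mix of the 6 genes' UMIs differed between EpA cells and fibroblast-like cells of the same injured library. Myl9 made up 2.01% (1.85 to 2.18) of the 28008 contractile UMIs in injured EpA cells and 6.37% (5.78 to 6.99) of the 6438 in injured fibroblast-like cells. Tpm2 made up 2.62% (2.44 to 2.82) and 12.8% (12.0 to 13.7), and Cnn1 3.42% (3.21 to 3.64) and 0.47% (0.31 to 0.66). For every 100 Tagln UMIs, injured EpA cells thus held 3.51 of Myl9, 4.59 of Tpm2 and 5.97 of Cnn1, where fibroblast-like cells held 17.4, 35.1 and 1.27. The 2 mixes thus differed in these sums, beyond counting error. The fibroblast-like UMIs come from 36 cells, the intervals leave out the spread between cells, and the source of the difference was not tested. In uninjured EpA cells Tpm1 was 56.1% of 1156 contractile UMIs and Tagln 10.0%, and after injury Tagln was 57.2% and Tpm1 23.9%.

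**Figure D5:**
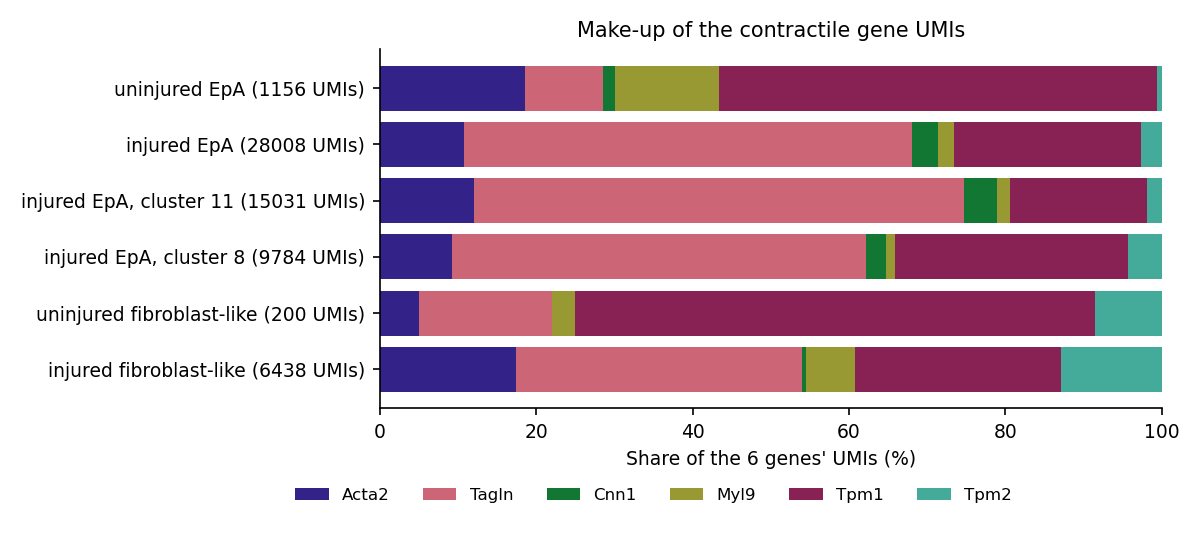
Share of each gene in the summed UMIs of the 6 genes (%), by group of cells, with the number of UMIs in brackets; bars add up to 100%. Tagln fills 57.2% of the injured EpA bar and 10.0% of the uninjured EpA bar, and Tpm2 and Myl9 take 12.8% and 6.37% of the injured fibroblast-like bar.

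Microglia-like cells served as a measure of background, since microglia lack this apparatus. In the 30 injured microglia-like cells (median 21186.5 UMIs, close to the EpA median of 20158.5) Acta2 was 5.42 CPM (1.48 to 13.9), Tagln 4.06 CPM (0.84 to 11.9) and Tpm2 6.77 CPM (2.20 to 15.8), with Cnn1 and Myl9 at 0 UMIs. Tpm1 was 17.6 CPM (9.38 to 30.1). At 2000 UMIs a cell, 0 of 26 of these cells held a UMI of any of the 6 genes, with an exact upper bound of 13.2% for each, so few cells limit this comparison. In the 36 uninjured microglia-like cells (median 7171.5 UMIs) Tpm1 had 4 UMIs, Tpm2 1 UMI and the other genes 0. The injured EpA levels of Acta2, Tagln, Cnn1, Myl9, Tpm1 and Tpm2 lay above the upper bounds of the microglia-like levels, 13.9, 11.9, 5.00, 5.00, 30.1 and 15.8 CPM. For the 80 injured cells of an endothelial-like cluster, Acta2 was 4.63 CPM (2.79 to 7.22) and Tagln 33.1 CPM (27.8 to 39.2), and Tpm1 was 322 CPM (305 to 340), above its level in injured EpA cells.

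Genes that define mural cells, the smooth muscle cells and pericytes around vessels, were low in EpA cells. Of 10 mural markers, 5 had a UMI in uninjured and 9 in injured EpA cells, none above 10 CPM, and their summed level was 4.81 CPM and 14.1 CPM (238.7 and 120.4 CPM outside EpA). Uninjured EpA cells had no UMI of Kcnj8, Pdgfrb, Notch3, Higd1b or Cspg4 and injured ones none of Higd1b, and the highest injured marker was Kcnj8 at 6.52 CPM. In the injured library their sum was 12.0 CPM in the 426 EpA cells with a Tagln UMI and 17.1 CPM in the 578 without, and 6.90 CPM in the 101 cells highest in Acta2. Most of the gap was Kcnj8, at 4.81 and 9.01 CPM with and without Tagln, a gene that was no higher in injured cells outside EpA (5.60 CPM). In the uninjured library the sum was 5.27 CPM with a Tagln UMI and 4.75 CPM without, and 6.36 CPM with an Acta2 UMI and 4.46 CPM without. Without the 3 uninjured and 146 injured EpA cells that held a UMI of Rgs5, Kcnj8, Abcc9, Higd1b or Notch3, no member's ratio moved beyond its counting interval. Of 8 fibroblast markers, 4 had a UMI in uninjured and 6 in injured EpA cells (Lum and Dpt were at 0 in both), and their sum was 30.4 and 39.2 CPM, mostly Col1a2 (28.9 and 32.3 CPM). That sum was 47.4 CPM in injured cells with Tagln and 27.2 CPM in those without, and 75.2 CPM in the 101 cells highest in Acta2, and its part in the contractile levels was not tested. Ependymal markers summed to 3464 CPM in injured cells with Tagln (median 29405.5 UMIs) and 7501 CPM in those without (14826 UMIs).

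Most further genes of the smooth muscle apparatus were too low to count. Of 20 such genes, 17 were in the EpA table and 6 passed 50 CPM, of which 2 were at least 2-fold higher, none at least 2-fold lower and 4 between, with a median log2 ratio of 0.20. Over all genes past the floor 10.8% were higher and 13.8% lower, at a median of 0.00, and 6 genes are too few to be set apart from that. Pdlim7, a PDZ and LIM protein of actin filaments, was 7.28 CPM uninjured and 95.8 CPM injured, and the LIM protein gene Csrp1 30.6 and 62.4 CPM. Synpo2 (myopodin) was 82.7 and 42.8 CPM, and Cald1, which encodes the actin- and myosin-binding caldesmon, 426 and 316 CPM. Myh11, the heavy chain of the smooth muscle myosin motor, had 0 UMIs in uninjured and 1 UMI in injured EpA cells, and Des had none in either. The smooth muscle motor gene and desmin were therefore at or near 0 where Tagln and Acta2 were high. Smoothelin (Smtn), singled out after its values were seen, went from 0.52 to 10.9 CPM and so stayed under the floor. Of 13 striated muscle isoforms, 8 were in the table and none passed the floor.

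The non-muscle relatives of the 6 genes passed the floor for the most part. Of 11 broadly expressed actins, transgelins, calponins, light chains and tropomyosins, 9 passed 50 CPM, of which 5 had at least a 2-fold higher level and none a 2-fold lower one. Their median log2 ratio was 1.17, against 0.00 over all genes, where 10.8% were higher and 13.8% lower. Actb (beta actin) was 1356 CPM uninjured and 4083 CPM injured, Actg1 (gamma actin) 894.5 and 2508 CPM, Tagln2 (transgelin 2) 318 and 819 CPM, and Myl12a, a regulatory light chain of non-muscle myosin, 109 and 264 CPM. The non-muscle calponin Cnn2, singled out after its values were seen, went from 0.78 to 27.5 CPM. The ratio of Actb was 3.01 (2.95 to 3.07), far below that of Tagln and near that of Tpm1.

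Regulators named with smooth muscle genes were mostly under the floor. Srf itself was 17.9 CPM uninjured and 16.5 CPM injured, a ratio of 0.92 (0.76 to 1.12). Its muscle cofactor Myocd had 17 and 25 UMIs, 2.21 and 0.99 CPM, so it was not higher. The list of SRF cofactors and targets of SRF or of YAP and TEAD had 21 symbols for 17 genes, all found in EpA cells. Its symbols Mrtfa, Mrtfb, Ccn1 and Ccn2 are newer names of Mkl1, Mkl2, Cyr61 and Ctgf, which it also holds. Of the 17 genes, 6 passed 50 CPM, where 1 had risen by 2-fold or more and 2 had fallen by as much. Their median log2 ratio was -0.14 (10.8%, 13.8% and 0.00 over all genes). Flna (the actin crosslinker filamin A) was 61.0 and 159.7 CPM, Amotl2 (angiomotin-like 2) 110.5 and 39.9 CPM, Fhl1 (a LIM-only protein) 357 and 144 CPM, and Cyr61 (a matricellular protein) 169 and 107 CPM. The other genes of this list under the floor were named after their values were seen. Their ratios were 3.09 for Mkl1, 5.14 for Zyx, 5.33 for Ctgf, 24.8 for Axl, 3.07 for Tgfb1i1 and 2.78 for Filip1l. Fhl2 went from 0 to 129 UMIs and Ankrd1 from 0 to 3, and the ratio of Mkl2 was 0.90.

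Of 20 genes of the TGF-beta pathway, which drives myofibroblast genes in other tissues, 3 passed 50 CPM, 2 of them at least 2-fold higher, with a median log2 ratio of 1.22 (10.8% and 0.00 over all genes). With 3 genes counted this describes those genes and not the pathway. Pmepa1, a pathway target and inhibitor, was 132 and 382 CPM, the receptor gene Acvr1 28.2 and 66.0 CPM, and Smad4, the common signal carrier, 80.9 and 74.5 CPM. The ligand gene Tgfb1, singled out after its values were seen, had 3 UMIs uninjured and 599 injured, 0.39 and 23.7 CPM, under the floor in both.

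Start-site windows of the members were searched for the element that SRF binds, since members were read together in injured cells. RefSeq windows from 250 bases before to 50 bases after a start (GRCm38.p6) matched 5 of the 6 genes, all but Tagln. A CArG box, the 2 letters CC, then 6 letters that are each A or T, then GG, lay in 1 of these 5 windows (Myl9) and in 535 of all 32851 windows (1.63%). With 1 G or C allowed among the 6 inner letters, a form added after the first search, 2 of 5 windows (Acta2 and Myl9) and 9.98% of all windows held a match. The 4 matches are shown with 10 bases on either side, in the direction of the gene, with the 10-letter match in capitals.
Acta2, chr19:34255438-34255467, minus strand, match 84 to 75 bases before the start: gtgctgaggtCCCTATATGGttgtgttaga
Acta2, chr19:34255388-34255417, minus strand, match 34 to 25 bases before the start: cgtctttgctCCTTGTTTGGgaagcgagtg
Myl9, chr2:156775293-156775322, plus strand, match 161 to 152 bases before the start, without G or C inside: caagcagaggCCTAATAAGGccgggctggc
Myl9, chr2:156775355-156775384, plus strand, match 99 to 90 bases before the start: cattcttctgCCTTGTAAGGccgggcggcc

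The gene with the strict match, Myl9, was the one at a like level in both libraries of EpA cells, and Tpm1, Tpm2 and Cnn1 held no such letters in their windows. On both strands, the letters CATTCC (the MCAT element that TEAD factors bind) lay in 14.7% of all windows, and in those of Acta2 and Tpm1, 146 and 56 bases before the start on the opposite strand. TATAAA lay in 13.6% and TGANTCA (the AP-1 element) in 7.81% of all windows, and neither in a member's. Apart from the strict match, which the wider form also counts, no motif overlapped another in these windows. A match is a run of letters, not a measured binding site.

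Over the 1004 injured EpA cells, the genes most like each member were ranked by Spearman correlation of UMIs per 10000, among 8474 genes seen in at least 20% of these cells. Cnn1 and Tpm2, seen in 16.7% and 18.1% of the cells, lay under that bound and could not be listed for another member. Cnn1 was at 0.362 with Acta2 and at 0.273 with Myl9, high enough to stand among their nearest 5. For Acta2 the listed genes were Tagln (0.42), Tpm1 (0.36), Anxa3 (0.34), Actb (0.33) and Col8a1 (0.33). For Tagln they were Anxa3 (0.51), Actb (0.50), S100a11 (0.47), Tnfrsf12a (0.46) and Nes (0.46). Anxa3, a membrane-binding annexin, was also first for Cnn1 (0.49) and Tpm1 (0.46), but with cells thinned to 5000 UMIs it was among the nearest 5 of none of the 6 genes. Cnn1 was further followed by Tnfrsf12a (0.44), Tagln (0.44), F2rl1 (0.43) and Nes (0.42). Tpm1 was followed by Actb (0.45), Ccnd1 (0.43), Nes (0.43) and Gpx1 (0.42). Tpm2 stood near to Lgals1 (0.53), Ccnd1 (0.52), Nes (0.51) and Tmsb10 (0.51), and Myl9 to Tagln (0.37), Acta2 (0.30), Myl6 (0.26), Actb (0.24) and Tpm1 (0.24). The cells share 1 library and differ in depth, and the members' own correlation with the total UMIs of the cell ran from 0.23 (Myl9) to 0.51 (Tpm2), as high as that with their nearest genes for Tpm2. With cells thinned to 5000 UMIs, 0 to 3 of the 5 nearest genes of a member stayed among its nearest 5. The pair Acta2 and Tagln was at 0.35 there and Myl9 and Tagln at 0.10.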

How the data were processed

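Sorted cells of 2 libraries, 1 per condition, were analysed. The deposited values are raw UMI counts of each gene in each cell; the authors applied no normalisation to them, since they are whole numbers with unequal totals. Cell Ranger 3.0.1, Seurat and the mm10 build are named per the submitters' processing notes, and the role of each tool, the gene annotation and the treatment of reads shared between paralogs are not given by these sources. Where deposited tables overlap, their values are the same. The authors' EpA table held 555 and 1004 cells, and their list of kept cells 711 and 1228 of 876 and 1566 barcodes.

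The 6 genes, the other gene lists, the cell type markers and the alternatives were chosen with earlier results of these data known. UMIs were summed over cells and scaled to CPM, with exact Poisson intervals for levels, exact conditional binomial intervals for ratios and Clopper-Pearson intervals for shares, all at 95% and for counting error only. Log2 ratios used 0.5 added counts. Genes were called by size alone: a ratio of 2 or more, and 50 CPM or more in 1 library or both.

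For shares, cells were thinned to 2000 UMIs (8 and 12 EpA cells were too shallow). All kept cells were clustered jointly without the 6 genes (Scanpy 1.11.5, 2000 variable genes, 20 principal components, 15 neighbours, Leiden resolution 0.5). A cluster took a name with at least 3 fixed markers above 100 CPM, these at least 50% of its list, and at most 1 marker of another class among its 10 leading genes, a rule set after the clusters had been seen. Clusters with more than 50% EpA cells were tried for the ependymal name only, without the condition on other classes. No doublet caller was run and no cell was removed. Named genes were the 6 members, up to 4 genes with the largest absolute log2 ratio past the floor from each other list, Myh11, Des, Myocd and Srf, and the 5 genes most alike each member. Some results that this rule names are not reported here. The motile cilium list (39 of 40 measured genes at least 2-fold lower), the core mitosis list (8 of 9 higher) and a list of 8 injury genes (7 of 7 higher) served only to divide or describe cells. Positions come from the GENCODE M21 annotation of GRCm38, and start-site windows from RefSeq (GRCm38.p6). The calculation was tested on simulated counts. Python 3.11.15, NumPy 2.4.6, SciPy 1.17.1, pandas 2.3.3, matplotlib 3.10.9 and, for 1 alternative scaling, edgeR 4.0.16 (TMM) were used. Alternatives changed the cells that enter, the weights of cells, thinning, scaling, the floor and the fold.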

Additional observations from a re-analysis of the deposited data

Results flagged for a closer look

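The barcodes that the authors did not keep, 165 uninjured and 338 injured, carried the contractile genes too. Acta2 stood at 15.2 CPM in the uninjured and 49.4 CPM in the injured of these barcodes, and Tagln at 30.4 and 345 CPM. Tpm1 stood at 108 and 342 CPM, and Tpm2 at 5.07 and 27.3 CPM, the former on 3 UMIs. These values were singled out because the barcodes enter no comparison of EpA cells and the injured level lay above that of the uninjured ones. Their median depth was 2272 UMIs uninjured and 2350 UMIs injured, but the deepest injured barcode had 263269 UMIs. The injured levels rest on few barcodes: 37 of the 338 held a Tagln UMI and 15 an Acta2 UMI. The richest barcode of each gene held 177 of 468 Tagln UMIs, 153 of 464 Tpm1 UMIs and 24 of 67 Acta2 UMIs.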

How the results depend on the processing

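No paired analysis was possible because there is 1 library per condition. No member's ratio turned its direction among those called, and none of the called ratios fell under 1.35. Over all kept cells the ratio was 5.16 for Acta2, 34.4 for Tagln and 1.72 for Myl9, and over all deposited barcodes 5.16, 32.2 and 1.74. In cells of 5000 to 20000 UMIs it was 2.06 for Acta2, 9.18 for Tagln, 2.83 for Cnn1, 1.35 for Tpm1 and 5.47 for Tpm2. Without the 1% highest cells it was 2.60 for Acta2, 32.7 for Tagln and 2.81 for Tpm1, and that of Tpm2 could not be formed, as no uninjured UMI was left. With every cell weighted alike it was 2.44 for Acta2, 10.8 for Cnn1, 1.82 for Tpm1 and 7.92 for Tpm2. For Tagln it was 10.0 there, with 1 uninjured cell at 7557 CPM of the gene. Thinned to 2000 UMIs it was 2.05 for Acta2, 31.7 for Tagln, 1.46 for Myl9 and 1.93 for Tpm1, with no uninjured Tpm2 UMI. As UMIs per cell without scaling it was 7.83 for Acta2, 76.4 for Tagln, 31.1 for Cnn1, 2.02 for Myl9 and 5.72 for Tpm1. Without dividing cells that of Tpm1 was 2.72. The ratio of Myl9 lay between 0.97 and 2.02. Leaving out cells with a mural marker UMI, TMM scaling and totals without mitochondrial genes moved no member's ratio beyond its interval, nor did 2 alternatives chosen after seeing the data: leaving out 3 uninjured EpA cells that clustered with endothelial-like or fibroblast-like cells, and leaving out the 16 uninjured and 32 injured EpA cells under 5000 UMIs.

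The count of genes at least 2-fold higher was 402 (511 lower), and was 767 (830 lower) at a floor of 20 CPM, 3309 (2747) with no floor, 186 (164) at a 3-fold ratio, 211 (131) with cells weighted alike and 230 (197) thinned. Of 24 alternative shares of cells 22 moved with the depth of thinning. At the 10th percentile the ratios below over within the cilium range stayed in their intervals, and those of injured over uninjured cells within it did too, though the new intervals of Acta2 and Myl9 excluded equal levels; 10 of 12 concentration values moved with a top 5% of cells. The cause was not tested where a value moved. Depth limits Cnn1 and Tpm2 most, at 17 and 7 uninjured UMIs.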
